A study of Mus musculus with 8 samples.

Results

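Late erythroid nuclei were the nuclei in which red cell genes stood far above the rest of a marrow progenitor table: at least 2 UMIs (unique molecular identifiers, each counting 1 captured RNA molecule) of Slc4a1, or at least 20 UMIs summed over the 4 adult globin genes Hba-a1, Hba-a2, Hbb-bs and Hbb-bt, with at most 2 UMIs of Jchain. The rule selected 102 of 8708 nuclei, or 1.17% (exact 95% interval 0.956 to 1.42%, counting error only). Barcode suffixes 1, 2, 3 and 4, called barcode sets here, held 53, 0, 49 and 0 of them, and 1 of the 102 shared its barcode sequence with a nucleus of another set.

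The series profiled marrow cells sorted as negative for lineage markers and positive for Sca1 and ckit (LSK), in which stem cells and the earliest progenitors are enriched, from mice carrying the T58A point mutation of MYC and from their WT littermates. The labels name 2 replicates of each genotype for RNA, with 2 mice in each replicate, and RNA was read from isolated nuclei with the 10x multiome assay. The ages of the mice are not given in the sources used here, and the chromatin accessibility samples were not analysed here. The deposited table carries T58A in its name, and whether it also holds WT nuclei is not stated. No label ties a barcode suffix to a genotype or a replicate, so T58A and WT were not compared, and the whole table is described as 1 sample with no test between conditions.

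Erythroid cells mature from progenitors that divide several times while they make hemoglobin, assemble a spectrin skeleton under the membrane, take up iron and build heme. Nuclear condensation, loss of the nucleus and removal of mitochondria complete the process. MYC is known in this lineage as a driver of growth and ribosome production that declines as cells mature.

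The adult globin genes and Alas2, the erythroid enzyme of the first step of heme synthesis, are the textbook outputs of this program, and their proximal promoters are shown because the nuclei are defined or marked by these transcripts. The windows are the 250 bases before each RefSeq start on build GRCm38.p6, written in the direction of transcription. Capitals mark matches on either strand to GATAA, a core read by GATA1, to CCNCNCCC, a CACCC-type element read by KLF1, and to CCAAT, read by NF-Y.
Hba-a1 (chr11:32283422-32283671, plus strand): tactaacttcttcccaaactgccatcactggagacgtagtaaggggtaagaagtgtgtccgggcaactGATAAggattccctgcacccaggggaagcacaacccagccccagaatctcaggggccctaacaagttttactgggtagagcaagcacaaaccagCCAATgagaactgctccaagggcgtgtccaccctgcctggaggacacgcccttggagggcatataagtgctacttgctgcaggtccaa
Hbb-bs (chr7:103827929-103828178, minus strand): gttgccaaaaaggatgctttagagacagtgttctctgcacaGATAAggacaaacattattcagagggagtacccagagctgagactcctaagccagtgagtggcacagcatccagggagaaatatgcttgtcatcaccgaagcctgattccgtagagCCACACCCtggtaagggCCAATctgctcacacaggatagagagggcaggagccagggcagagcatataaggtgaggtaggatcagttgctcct
Hbb-bt (chr7:103813924-103814173, minus strand): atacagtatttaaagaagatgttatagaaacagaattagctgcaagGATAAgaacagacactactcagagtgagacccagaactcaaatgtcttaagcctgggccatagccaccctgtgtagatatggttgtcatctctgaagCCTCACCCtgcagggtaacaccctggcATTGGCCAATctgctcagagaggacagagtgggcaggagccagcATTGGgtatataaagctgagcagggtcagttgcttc
Alas2 (chrX:150547167-150547416, plus strand): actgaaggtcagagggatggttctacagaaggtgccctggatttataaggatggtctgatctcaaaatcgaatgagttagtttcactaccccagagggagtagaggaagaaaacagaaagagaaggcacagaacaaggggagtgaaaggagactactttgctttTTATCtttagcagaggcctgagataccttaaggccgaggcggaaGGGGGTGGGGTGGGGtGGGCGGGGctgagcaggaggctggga
All 4 windows held GATAA once. Both beta globin windows held CCNCNCCC once, and Alas2 held it 4 times in partly overlapping matches. CCAAT occurred once in the Hba-a1 and Hbb-bs windows, 3 times in the Hbb-bt window and not in that of Alas2. Of all 32851 RefSeq promoter windows of this length, 22.6% held GATAA, 45.9% CCNCNCCC and 33.8% CCAAT, so a match is a description of the letters and not a site. Windows were paired at the best shift without gaps. The Hba-a2 window, shifted by 3 bases, was identical to that of Hba-a1 at 247 of 247 bases, whereas the Hbb-bs and Hbb-bt windows matched at 127 of 249. No alignment with gaps was made, so the match of the beta globin pair is not a measure of its full similarity. Hba-a1 and Hba-a2 are near-identical copies, as are to a lesser degree Hbb-bs and Hbb-bt, so how reads were divided within each pair is uncertain and the sum of the 4 genes is the safer value. The Sptb window held CCNCNCCC 3 times and neither other motif. The table used had no entry for Slc4a1.

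Of the 102 nuclei, 85 met the Slc4a1 threshold alone, 16 met both and 1 met only the globin threshold. That nucleus, in set 1, had 100 globin UMIs, 1 Slc4a1 UMI and no UMI of Sptb. One further nucleus of set 1, with 2 Slc4a1 and 51 globin UMIs, was left out by its 3 Jchain UMIs. Just inside the threshold, 15 nuclei had 2 Slc4a1 UMIs and fewer than 20 globin UMIs, and their Sptb level was 533 UMIs per 1000000 UMIs (CPM) with Sox6 at 1284 CPM. Just outside it, 145 nuclei had 1 Slc4a1 UMI, 76 in set 1 and 69 in set 3, with Sptb at 60.6 and Sox6 at 185 CPM. Another 12 nuclei had 5 to 19 globin UMIs and at most 1 of Slc4a1. These values describe how sharply the rule divided the nuclei and are not a result.

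**Figure D1:**
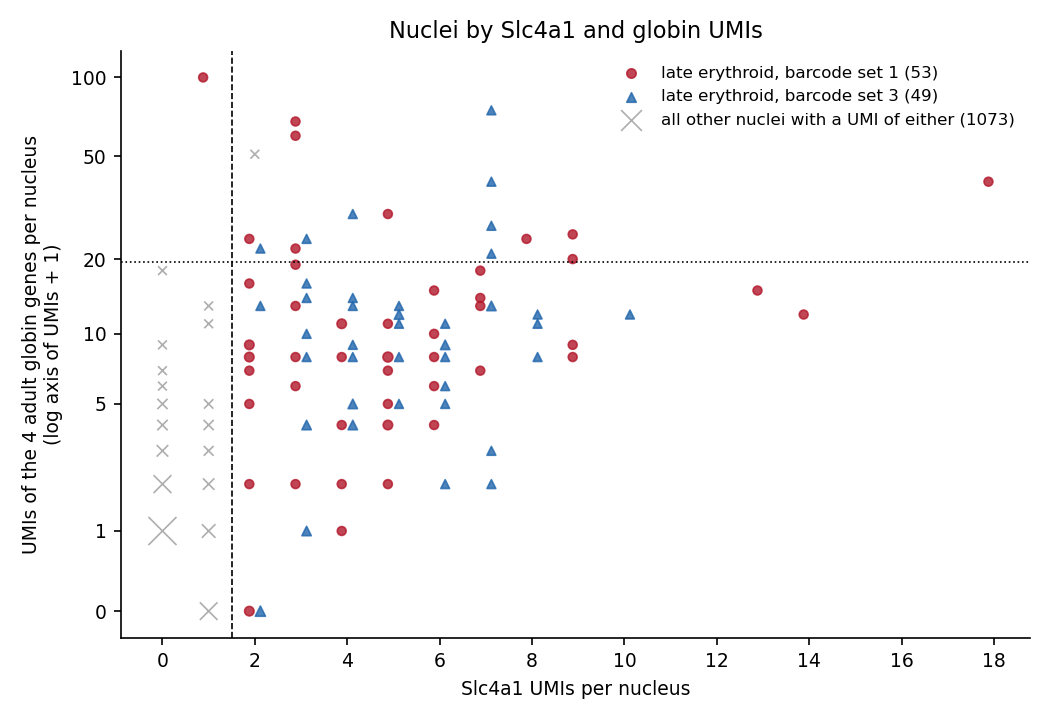
Slc4a1 UMIs (x axis) against summed UMIs of the 4 adult globin genes (y axis, log scale of the sum plus 1) for each nucleus with either transcript. Circles are late erythroid nuclei of set 1, triangles those of set 3, and crosses, larger where more nuclei coincide, all other nuclei; the thresholds are drawn as lines. Of the 102 late erythroid nuclei, 85 lie right of the Slc4a1 threshold and below the globin threshold, and 16 lie beyond both.

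Depth and the share of mitochondrially encoded genes differed between the groups in ways that touch every value below. Late erythroid nuclei had a median of 1594.5 UMIs (1004 to 10537) and 64 of 102 had fewer than 2000. Erythroid progenitor nuclei, defined here as nuclei outside the late erythroid rule with at least 3 UMIs of Slc25a21, at least 1 of Car1 and at most 2 of Jchain, numbered 453 (156, 12, 213 and 72 in sets 1 to 4) with a median of 8884 UMIs, and all 8606 other nuclei, these progenitors included, had a median of 4187.5. Mitochondrially encoded genes took 19.1% of UMIs in late erythroid nuclei of set 1, 31.4% in erythroid progenitors and 24.7% in all other nuclei of that set. In set 3 they took 18.9% in late erythroid nuclei, 31.5% in progenitors and 24.3% in all other nuclei. Over all 4 sets, all other nuclei were at 17.3%, since sets 2 and 4 were at 9.98% and 9.22%. Over all other nuclei of sets 1 to 4, the 4 globins summed to 61.0, 3.80, 43.3 and 1.20 CPM and Slc4a1 to 6.95, 0, 5.46 and 0 CPM, so UMIs of the rule's own genes were also more frequent outside the late erythroid nuclei of sets 1 and 3. Alas2, which the rule did not use, was at 1.43, 3.63, 1.66 and 2.53 CPM there and had no such pattern. Sets 2 and 4 had 0 late erythroid nuclei among 721 and 2232. A limit of 3 counts allows a share of up to 0.416% and 0.134%, and the exact 95% intervals reach 0.510% and 0.165%. A doublet score placed 8.82% of late erythroid nuclei, 11.3% of erythroid progenitors and 4.96% of all other nuclei among its highest 5%. Free RNA outside nuclei was not measured, and the part of depth, free RNA and doublets in the results was not tested.

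All 5 marker genes of the label were present. Slc4a1, which encodes the band 3 anion exchanger of the red cell membrane, had a median of 5 UMIs per nucleus (1 to 18), and the summed globins a median of 9 UMIs (0 to 100), with 6 nuclei at 0. Hba-a1 was detected in 89 and Hbb-bs in 81 of the 102 nuclei. Of genes the rule did not use, Sptb, the beta chain of spectrin, was detected in 87 nuclei with a median of 3 UMIs (0 to 11), and Alas2 in 33 with at most 4 UMIs. In the deeper erythroid progenitors, Sptb was detected in 127 of 453 and Alas2 in 8. These values do not go against the label late erythroid. Mki67, the proliferation marker, was detected in 95 of the 102 nuclei, so a cycle transcript was present beside the terminal genes.

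Slc4a1 reached 2157 CPM in late erythroid nuclei of set 1 and 2122 CPM in set 3, against 5.23 and 3.47 CPM in erythroid progenitors of those sets. Hba-a1 was at 2068 and 1674 CPM in late erythroid nuclei of sets 1 and 3, against 9.71 and 6.95 CPM in erythroid progenitors. Hbb-bs was at 2205 and 1719 CPM in late erythroid nuclei, against 13.4 and 8.93 CPM in progenitors. The rule chose on these genes, so their differences are fixed by it. Hba-a2 was at 966 CPM in late erythroid nuclei and 6.48 CPM in progenitors, and Hbb-bt at 750 CPM in late erythroid nuclei and 4.25 CPM in progenitors. The embryonic globins Hba-x, Hbb-y, Hbb-bh1 and Hbb-bh2 had no UMI in the late erythroid nuclei, which allows up to 12.7 CPM for each, and Hbq1b, a theta globin, had 2 UMIs. The globin UMIs of these nuclei were thus those of adult genes, with the 2 of Hbq1b beside them.

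Across all genes, late erythroid nuclei were compared with erythroid progenitors and with all other nuclei, on summed UMIs. The progenitors were taken as an earlier stage of the lineage, and no order of stages was computed. Higher and lower stand for a 2-fold ratio of CPM plus 10 with the same direction in sets 1 and 3. Such a call is a description and not a test, since nuclei of 1 table are not replicates. Against erythroid progenitors 9.76% of 7389 measured genes were higher (721) and 18.4% lower (1357), with a median log2 ratio of -0.26. With mitochondrially encoded genes left out of the totals that median was -0.40, and 630 genes were higher and 1770 lower. Against all other nuclei 6.22% of 13125 genes were higher (816) and 17.9% lower (2346). A total of 516 genes (6.98% of the 7389) were higher than in both and 938 (12.7%) lower than in both. Counts of list members below are to be read against these percentages, and listed genes with fewer than 50 UMIs over both groups are not among the measured ones. Late erythroid nuclei supplied 5.01% of the UMIs in the comparison with progenitors, so genes passed that minimum mostly through progenitor counts. A gene near the minimum could be called lower for want of a few UMIs in late erythroid nuclei. The counts of genes lower than in progenitors may include such calls. Folds are late erythroid CPM over progenitor CPM, with exact 95% intervals that cover counting error only.

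Genes of the red cell membrane and its skeleton were among those furthest above progenitors. Of 23 measured members of this list, 12 were higher, with Slc4a1 of the rule among them, all 12 also higher than in all other nuclei, and Piezo1 and Aqp9 were lower, with a median log2 ratio of 1.10. Sptb was at 1288 and 1271 CPM in late erythroid nuclei of sets 1 and 3, against 49.3 and 58.6 CPM in erythroid progenitors, a fold of 22.4 (18.9 to 26.5). Its level was thus about the same in the 2 late erythroid sets and far above both progenitor sets. Dmtn, which encodes the actin-bundling protein dematin, was at 356 CPM in late erythroid nuclei and 4.25 CPM in progenitors, 83.8-fold (50.5 to 146). Tmod1, a cap of actin filament ends, was at 305 CPM in late erythroid nuclei and 3.58 CPM in progenitors, 85.3-fold (49.1 to 157). Ank1, the ankyrin that ties band 3 to spectrin, was at 1746 CPM in late erythroid nuclei and 333 CPM in progenitors, 5.24-fold. Fhdc1, a formin homology gene outside the list, had one of the highest ratios of all genes, at 267 CPM in late erythroid nuclei and 1.79 CPM in progenitors, 149-fold (71.3 to 361).

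Of 16 measured blood group and surface genes, 9 were higher than in progenitors and 1, Kit, was lower. Cd24a, a surface antigen of immature erythroid cells, was at 424 CPM in late erythroid nuclei and 46.5 CPM in progenitors. Cd47, a signal against uptake by macrophages, was at 1051 CPM in late erythroid nuclei, 421 CPM in progenitors and 614 CPM in all other nuclei. Rhag, of the Rh complex, was at 776 CPM in late erythroid nuclei and 221 CPM in progenitors. Ermap, a blood group gene already high in progenitors, was at 547 CPM in late erythroid nuclei and 395 CPM in progenitors, and was called neither higher nor lower. Kit, the stem cell factor receptor on which the cells were sorted, was at 157 CPM in late erythroid nuclei, 516 CPM in progenitors and 474 CPM in all other nuclei. After every nucleus was thinned to 1000 UMIs, Kit was detected in 4.90% of late erythroid nuclei (1.61 to 11.1%), 39.7% of progenitors and 35.2% of all other nuclei. Ly6a, which encodes the other sorting antigen Sca1, had no UMI in late erythroid nuclei, where 12.7 CPM could have gone undetected, and was at 1.79 CPM in progenitors and 8.33 CPM in all other nuclei. Late erythroid nuclei thus held a smaller share of Kit RNA than the other sorted nuclei, while Ly6a was too low to compare.

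**Figure D2:**
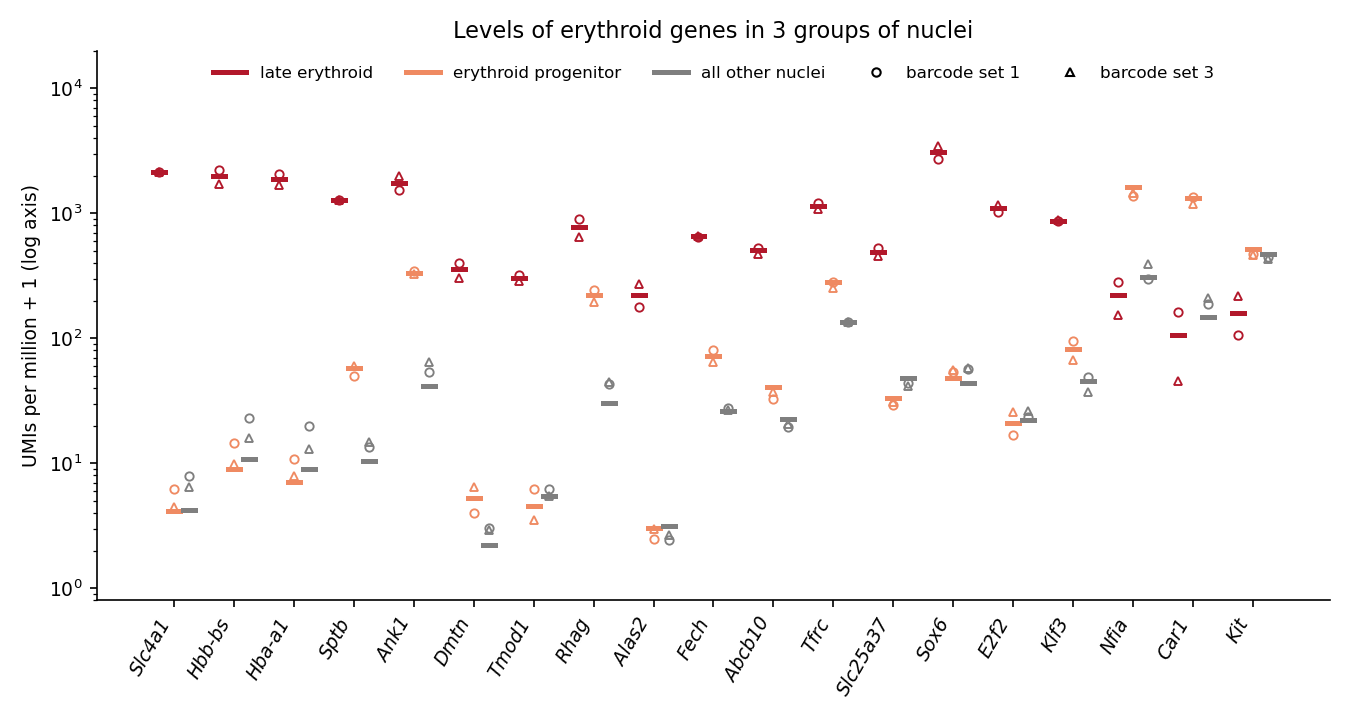
Level of 19 genes (y axis, CPM plus 1, log scale) in late erythroid nuclei, erythroid progenitors and all other nuclei. Bars are the value over all nuclei of a group, circles set 1 and triangles set 3; Slc4a1, Hba-a1, Hbb-bs, Sptb, Alas2 and Sox6 lie more than 10-fold above erythroid progenitors, and Nfia, Kit and Car1, which the progenitor definition uses, lie below them.

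Of 16 measured heme synthesis genes, 11 were higher and none lower, each of the 11 also higher than in all other nuclei, with a median log2 ratio of 1.57. Alas2 was at 177 and 269 CPM in late erythroid nuclei of sets 1 and 3, against 1.49 and 1.99 CPM in erythroid progenitors, 110-fold (53.5 to 253). Fech, which inserts iron into the ring, was at 644 and 663 CPM in late erythroid nuclei, against 79.2 and 63.5 CPM in progenitors. For both enzymes the late erythroid sets lay above both progenitor sets. Abcb10, a mitochondrial transporter needed for hemoglobin production, was at 504 CPM in late erythroid nuclei and 39.6 CPM in progenitors, 12.7-fold (10.0 to 16.2). Alas1, the housekeeping counterpart of Alas2, was at 29.7 CPM in late erythroid nuclei (7 UMIs) and 14.1 CPM in progenitors and was called neither. Slc6a9, a glycine transporter, had 39 UMIs in late erythroid nuclei and 5 in progenitors, under the minimum of 50 for a call.

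Of 20 measured genes of iron uptake and storage, 4 were higher and 2 lower, and the median log2 ratio was -0.09. With mitochondrially encoded genes left out of the totals 3 were higher and 6 lower, with a median of -0.22, so the balance of this list turned with the scaling. Tfrc, the transferrin receptor, was at 1199 and 1083 CPM in late erythroid nuclei of sets 1 and 3, against 283 and 253 CPM in progenitors. Slc25a37, the mitochondrial iron importer mitoferrin, was at 492 CPM in late erythroid nuclei and 32.0 CPM in progenitors, 15.4-fold (11.9 to 19.8). Tfr2, a second transferrin receptor, and Steap3, an iron reductase, were the lower ones, Tfr2 at 46.6 CPM in late erythroid nuclei and 146 CPM in progenitors and Steap3 at 38.1 CPM in late erythroid nuclei and 116 CPM in progenitors. Eif2ak1, outside these lists and the kinase that reads heme supply and restrains globin translation, was 19-fold higher (15.7 to 22.9), at 954 CPM in late erythroid nuclei and 50.3 CPM in progenitors.

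Among 30 measured erythroid and megakaryocytic transcription factors, 9 were higher and 6 lower than in progenitors, with a median log2 ratio of 0.10. With mitochondrially encoded genes left out of the totals 9 were higher and 8 lower, with a median of -0.05. Sox6, a factor of late erythroid maturation, had the largest log2 ratio of the list, at 2736 and 3465 CPM in late erythroid nuclei of sets 1 and 3, against 52.3 and 54.6 CPM in progenitors, 66.0-fold (56.5 to 77.3). Per nucleus Sox6 had a median of 6 UMIs (0 to 26) and was detected in 96 of 102, and at 1000 UMIs in 86.3% of late erythroid nuclei, 5.08% of progenitors and 4.23% of all other nuclei. E2f2, an E2F factor known to act in terminal erythroid division, was at 1098 CPM in late erythroid nuclei and 19.9 CPM in progenitors, 55.2-fold (43.2 to 71.0). Klf3, a Krüppel-like factor, was at 873 CPM in late erythroid nuclei and 80.5 CPM in progenitors, 10.9-fold. Hemgn, an erythroid nuclear protein outside the list, was at 322 CPM in late erythroid nuclei and 18.1 CPM in progenitors. Nfia had the lowest ratio of the list, at 282 and 152 CPM in late erythroid nuclei of sets 1 and 3, against 1363 and 1446 CPM in progenitors, 7.34-fold lower (5.59 to 9.84). Myb, which sustains progenitor division, was at 165 CPM in late erythroid nuclei and 671 CPM in progenitors, and Bcl11a, the repressor of embryonic and fetal-type globins, at 263 CPM in late erythroid nuclei and 853 CPM in progenitors. Gata1 and Klf1, the central erythroid activators, rested on 7 and 10 UMIs in late erythroid nuclei and were called neither, with Gata1 at 29.7 CPM in late erythroid nuclei and 46.3 CPM in progenitors and Klf1 at 42.4 CPM in late erythroid nuclei and 18.8 CPM in progenitors.

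Of 13 measured genes of erythropoietin signalling, 2 were higher and 1 lower, or 2 and 2 with mitochondrially encoded genes left out of the totals. Pim1, a kinase induced by this pathway, was at 288 CPM in late erythroid nuclei and 50.1 CPM in progenitors, and Jak2, the kinase bound to the receptor, at 348 CPM in late erythroid nuclei and 136 CPM in progenitors. Stat5a was at 25.4 CPM in late erythroid nuclei and 85.2 CPM in progenitors.

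Genes of enucleation, nuclear condensation and organelle clearance had 11 of 25 measured members higher, 10 of them also higher than in all other nuclei, and 1 lower, with a median log2 ratio of 0.70. Ube2h, a ubiquitin-conjugating enzyme, was at 539 and 501 CPM in late erythroid nuclei of sets 1 and 3, against 34.4 and 36.2 CPM in progenitors, 13.5-fold (10.6 to 17.1). Ulk1, the autophagy kinase, was at 314 and 295 CPM in late erythroid nuclei, against 23.2 and 28.3 CPM in progenitors. Ube2o, which marks ribosomal and other proteins for removal in reticulocytes, was at 174 CPM in late erythroid nuclei and 21 CPM in progenitors, 8.27-fold. Bnip3l, the receptor that targets mitochondria for autophagy, was at 182 CPM in late erythroid nuclei and 36.7 CPM in progenitors. Of 20 measured red cell enzymes and antioxidants, 7 were higher and 2 lower. Gclc, of glutathione synthesis, was at 814 CPM in late erythroid nuclei and 163 CPM in progenitors and Hagh, a glyoxalase, at 123 CPM in late erythroid nuclei and 16.3 CPM in progenitors. The lower ones were Car1, which the progenitor definition uses, and Pklr, the red cell pyruvate kinase, with 1 UMI in late erythroid nuclei (4.24 CPM) and 61.5 CPM in progenitors. Slc25a21, the other gene of that definition, was at 3115 CPM in late erythroid nuclei and 4030 CPM in progenitors, while all other nuclei were at 459 CPM. Car1 was at 106 CPM in late erythroid nuclei, 1327 CPM in progenitors and 147 CPM in all other nuclei. Every progenitor nucleus had both transcripts by definition, so the progenitor levels of these 2 genes are set by it and nothing is read from them.

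**Figure D3:**
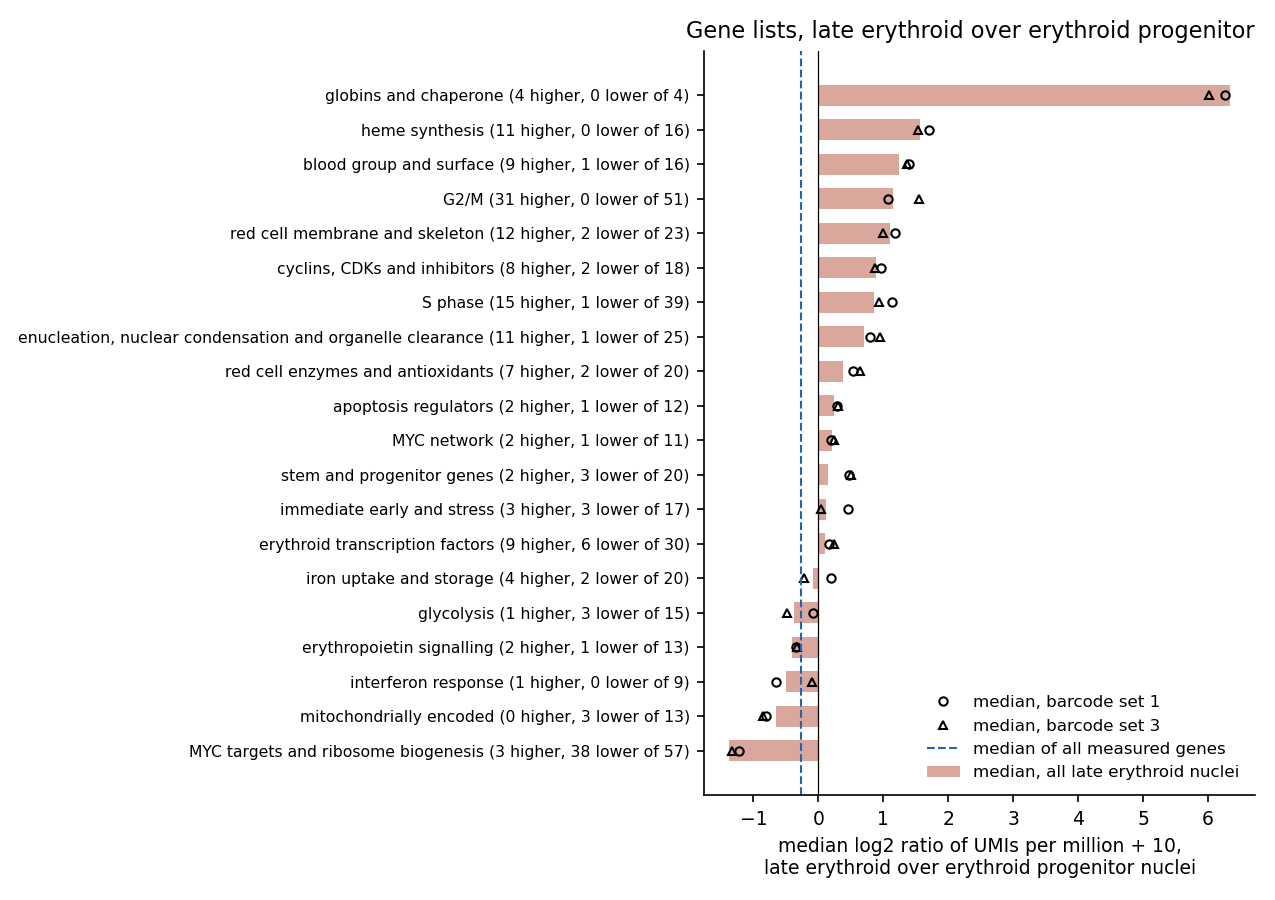
Median log2 ratio of late erythroid over erythroid progenitor nuclei (x axis, CPM plus 10) for the measured members of 20 gene lists, with the numbers called higher and lower beside each name. Bars are the median over all nuclei, circles set 1, triangles set 3 and the dashed line the median of all measured genes (-0.26); heme synthesis, membrane and G2/M lists lie right of that line, and the list of MYC targets and ribosome biogenesis lies left of it.

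Many cell cycle genes were higher in late erythroid nuclei. Of 51 measured G2/M genes 31 were higher than in progenitors, 29 of them also higher than in all other nuclei, and none was lower, with median log2 ratios of 1.08 and 1.55 in sets 1 and 3. Of 39 measured S phase genes 15 were higher and 1, Exo1, was lower. Mki67 was at 3453 and 3438 CPM in late erythroid nuclei of sets 1 and 3, against 527 and 459 CPM in progenitors, 6.62-fold (6.10 to 7.17). Birc5, a survival and spindle protein of mitosis, was at 263 CPM in late erythroid nuclei and 31.1 CPM in progenitors, and Smc4, a condensin subunit, at 2013 CPM in late erythroid nuclei and 564 CPM in progenitors. Rrm2, the ribonucleotide reductase subunit made for DNA synthesis, was at 216 CPM in late erythroid nuclei and 19.4 CPM in progenitors, 11.1-fold (7.71 to 15.9), and Uhrf1, which maintains DNA methylation at replication, at 373 CPM in late erythroid nuclei and 52.5 CPM in progenitors. Of 18 measured cyclins, cyclin-dependent kinases and their inhibitors, with Rb1 among them, 8 were higher and 2 lower. Rb1, the retinoblastoma gene, was at 1151 and 1057 CPM in late erythroid nuclei of sets 1 and 3, against 145 and 129 CPM in progenitors, 7.43-fold (6.42 to 8.59). Cdkn1b, which encodes the inhibitor p27, was at 174 CPM in late erythroid nuclei and 30.6 CPM in progenitors, 5.67-fold. Cdk6, a kinase whose decline accompanies erythroid maturation, was at 513 CPM in late erythroid nuclei, 1290 CPM in progenitors and 1665 CPM in all other nuclei.

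Thinning to 1000 UMIs removed the difference in depth. At least 2 G2/M genes were then detected in 97.1% of late erythroid nuclei (91.6 to 99.4%), 95.6% of progenitors (93.3 to 97.3%) and 75.6% of all other nuclei (74.6 to 76.5%), a share near its ceiling in the first pair of groups. At least 3 were detected in 96.1% of late erythroid nuclei (90.3 to 98.9%), 88.1% of progenitors (84.7 to 90.9%) and 58.1% of all other nuclei. At 500 UMIs without mitochondrially encoded genes, at least 3 were detected in 93.1% of late erythroid nuclei (86.4 to 97.2%) and 74.4% of progenitors (70.1 to 78.4%). The number of G2/M genes at 1000 UMIs differed too, with a median of 13.5 per nucleus in late erythroid nuclei (12 in set 1 and 15 in set 3), 5 in progenitors and 3 in all other nuclei. At least 2 S phase genes were detected in 88.2% of late erythroid nuclei (80.4 to 93.8%), 71.3% of progenitors (66.9 to 75.4%) and 63.5% of all other nuclei (62.5 to 64.5%). At 500 UMIs without mitochondrially encoded genes that share was 71.6% in late erythroid nuclei (61.8 to 80.1%) and 60.9% in progenitors (56.3 to 65.4%), with intervals that overlap. In set 1 alone it was then 77.4% in late erythroid nuclei (63.8 to 87.7%) and 55.8% in progenitors (47.6 to 63.7%). In set 3 alone it was 65.3% in late erythroid nuclei and 63.8% in progenitors, without a clear difference. With at least 3 genes it was 60.8% (50.6 to 70.3%) in late erythroid nuclei and 34% (29.6 to 38.6%) in progenitors. In set 3 the intervals for at least 3 genes overlapped, at 36.3 to 65.6% and 25.7 to 38.6%. The size of the S phase difference at that depth thus varied with the set and the number of genes required. Without thinning every late erythroid nucleus had at least 2 G2/M genes. Mki67 was detected at 1000 UMIs in 89.2% of late erythroid nuclei, 35.5% of progenitors and 24.2% of all other nuclei. The total number of genes detected at that depth was similar, with medians of 579 in late erythroid nuclei, 545 in progenitors and 611 in all other nuclei. Transcripts of these lists were read and no phase was assigned.

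**Figure D4:**
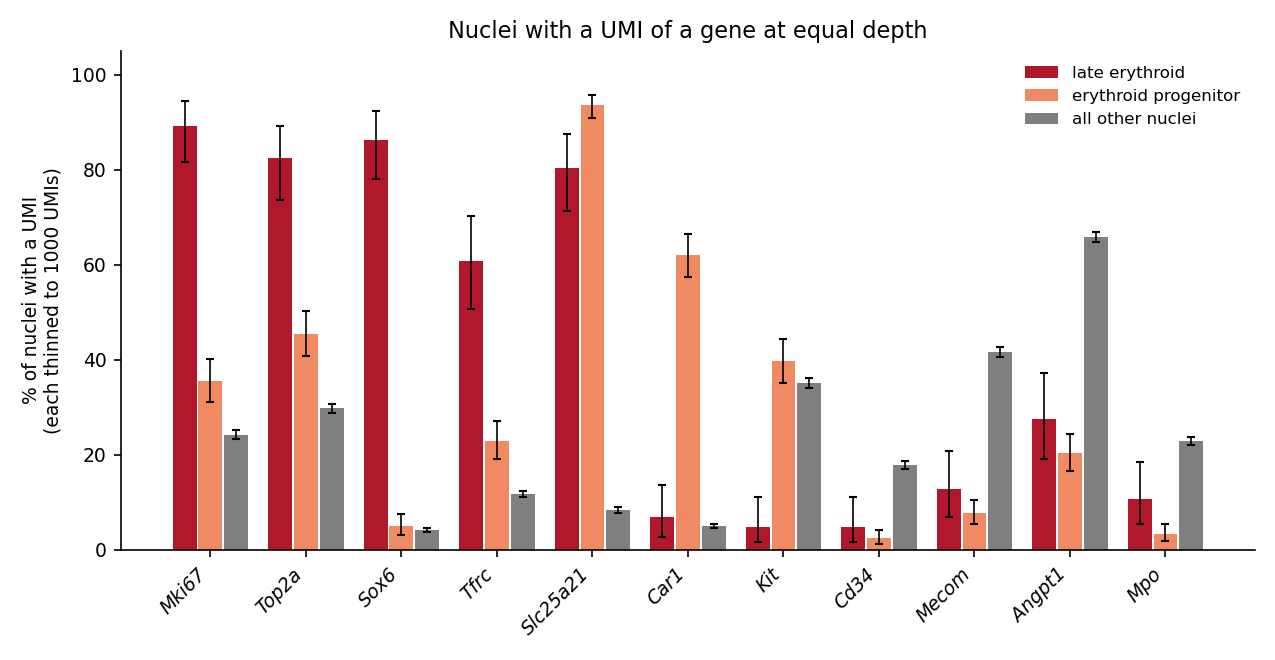
Share of nuclei with at least 1 UMI of each of 11 genes after every nucleus was thinned to 1000 UMIs (y axis, percent), for late erythroid nuclei, erythroid progenitors and all other nuclei, with exact 95% intervals as bars that cover counting error only. Sox6 and Mki67 are detected in more late erythroid nuclei than in either other group, and Kit in fewer; Car1 and Slc25a21 are part of the progenitor definition.

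The MYC network and its targets were described because the series is about a mutation of MYC. Myc itself had 7 UMIs in late erythroid nuclei, at 29.7 CPM against 45.6 CPM in progenitors and 55.3 CPM in all other nuclei, and was called neither. Of 11 measured network genes 2 were higher and 1 lower. Mxi1, a MAX partner that antagonises MYC, was at 314 and 349 CPM in late erythroid nuclei of sets 1 and 3, against 43.3 and 70.5 CPM in progenitors. Mxd1, a second antagonist, was at 113 and 179 CPM in late erythroid nuclei, against 14.9 and 16.9 CPM in progenitors. Both were also higher than in all other nuclei. Mxd3, of the same family, had 9 UMIs in late erythroid nuclei and none in progenitors, and Mga, a MAX-binding repressor, was the lower gene, at 89.0 CPM in late erythroid nuclei and 267 CPM in progenitors.

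Of 57 measured genes in the list of MYC targets and ribosome biogenesis, 38 were lower than in progenitors and 3 higher, with a median log2 ratio of -1.37 (-1.22 in set 1 and -1.33 in set 3), and 20 were lower than in both progenitors and all other nuclei. Ncl, a nucleolar protein of ribosome assembly, was at 298 and 385 CPM in late erythroid nuclei of sets 1 and 3, against 654 and 750 CPM in progenitors. Npm1, a nucleolar chaperone, was at 127 CPM in late erythroid nuclei and 474 CPM in progenitors, and Polr1a, the large subunit of RNA polymerase I, at 17.0 CPM (4 UMIs) in late erythroid nuclei and 122 CPM in progenitors. The 3 higher genes were Odc1, the first enzyme of polyamine synthesis, at 246 CPM in late erythroid nuclei and 76.9 CPM in progenitors, Ubtf, a factor of ribosomal RNA transcription, at 259 CPM in late erythroid nuclei and 88.7 CPM in progenitors, and Mcm5, a replication helicase subunit, at 131 CPM in late erythroid nuclei and 41.1 CPM in progenitors. Against all other nuclei, 23 of 60 measured members were lower and 3 higher, with a median of -0.85 beside an all-gene median of -0.34. Against the 2428 other nuclei of sets 1 and 3 under 3000 UMIs (median 2137.5), 54 were measured, of which 11 were lower and 5 higher, with a median of -0.54 beside an all-gene median of -0.31. Of all 8241 genes measured in that comparison 21.5% were lower and 11.5% higher, so the list's count of lower members was near the background there. The part of depth in the lower level of this list was not tested. In the same comparison 43 of 46 measured G2/M genes and 12 of 15 measured heme synthesis genes were higher. The 34 progenitors under 4000 UMIs (median 3075) were too few for such counts, since late erythroid nuclei supplied 70.7% of the UMIs compared and genes passed the minimum of 50 mostly through them.

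**Figure D5:**
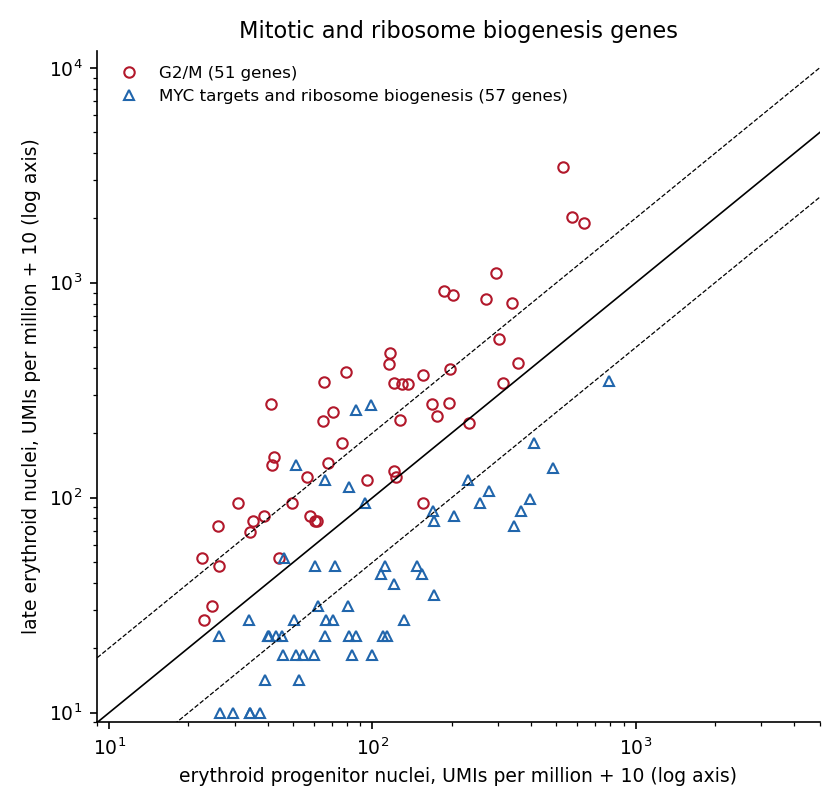
Level of each measured gene of 2 lists in late erythroid nuclei (y axis) and erythroid progenitors (x axis), both in CPM plus 10 on log scales, with circles for 51 G2/M genes and triangles for 57 genes of MYC targets and ribosome biogenesis. The solid line marks equal levels and the dashed lines a 2-fold difference; 31 G2/M genes and 3 of the other list were called higher, and 0 and 38 lower.

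Among genes outside the lists, Slc22a4, a transporter of organic cations, was at 604 and 797 CPM in late erythroid nuclei of sets 1 and 3, against 18.7 and 22.8 CPM in progenitors, 33.4-fold (25.8 to 43.6). Pkhd1l1 was at 958 CPM in late erythroid nuclei, 53.4 CPM in progenitors and 9.69 CPM in all other nuclei. At the other end, Snhg4, a host gene of small nucleolar RNA, had no UMI in late erythroid nuclei and 123 CPM in progenitors, at least 9.69-fold lower when a count of 0 is set to 3 UMIs. Grb10, an imprinted adaptor of growth factor signalling, also had none and was at 114 CPM in progenitors, at least 8.93-fold lower. Kcng2, a potassium channel subunit, had none either, against 90.5 CPM in progenitors. Zg16 had 1 UMI in late erythroid nuclei (4.24 CPM), against 208 CPM in progenitors. Airn, the imprinted antisense RNA of Igf2r, had 4 UMIs in late erythroid nuclei (17.0 CPM), against 347 CPM in progenitors; whether counting used strand is not known here. Pvt1, the noncoding RNA gene beside Myc, was at 48.3 and 26.9 CPM in late erythroid nuclei of sets 1 and 3, against 420 and 516 CPM in progenitors, 13.3-fold lower (7.01 to 29.2). Among the lowest ratios to all other nuclei were those of Fgf13, with no UMI in late erythroid nuclei and 130 CPM in all other nuclei, and Plxdc2, at 8.48 CPM in late erythroid nuclei and 150 CPM in all other nuclei.

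The remaining lists had few called members against progenitors. Of 12 measured apoptosis regulators 2 were higher and 1 lower, of 15 glycolysis genes 1 was higher and 3 lower, of 9 interferon response genes 1 was higher, and of 17 immediate early and stress genes 3 were higher and 3 lower. With mitochondrially encoded genes left out of the totals, 2 apoptosis regulators were higher and 2 lower, no interferon response gene was called, and 1 immediate early or stress gene was higher and 4 lower. With the same scaling 1 glycolysis gene was higher and 4 were lower. Of the 13 mitochondrially encoded genes 3 were lower, or 5 with that scaling. Genes of stem and early progenitor cells were lower than in all other nuclei in 22 of 30 measured members, with a median log2 ratio of -1.47, but against erythroid progenitors 2 of 20 were higher and 3 lower. Markers of cell types other than erythroid were at summed levels below those of all other nuclei within set 1 and within set 3, except those of macrophages in set 3, which rested on 6 UMIs of Vcam1. Summed stem cell markers were at 793 CPM in late erythroid nuclei, 766 CPM in progenitors and 2641 CPM in all other nuclei, with 2 of 7 markers at 0. Myeloid progenitor markers were at 496 CPM in late erythroid nuclei, 121 CPM in progenitors and 1197 CPM in all other nuclei with 1 of 10 at 0, and Mpo, the myeloperoxidase gene, had 66 UMIs there. Plasma cell markers were at 729 CPM in late erythroid nuclei, 267 CPM in progenitors and 1555 CPM in all other nuclei with 2 of 10 at 0, and neutrophil markers at 182 CPM in late erythroid nuclei, 49.8 CPM in progenitors and 144 CPM in all other nuclei with 1 of 8 at 0. Within sets the order to all other nuclei was the reverse for neutrophil markers, at 137 CPM in late erythroid nuclei and 260 CPM in all other nuclei of set 1, and 233 CPM in late erythroid nuclei and 243 CPM in all other nuclei of set 3. Megakaryocyte markers had 5 of 10 at 0, and macrophage markers, including those of the macrophages that surround maturing red cells in marrow, had 13 of 14 at 0. Several of these lists summed to more than in progenitors and none had a member called higher than in both comparison groups, whereas the erythroid progenitor list was at 6917 CPM in late erythroid nuclei, 6661 CPM in progenitors and 870 CPM in all other nuclei. Lymphoid progenitor markers were at 411 CPM in late erythroid nuclei, 138 CPM in progenitors and 1342 CPM in all other nuclei, dendritic at 127 CPM in late erythroid nuclei, 64.6 CPM in progenitors and 529 CPM in all other nuclei, B lineage at 42.4 CPM in late erythroid nuclei, 18.3 CPM in progenitors and 278 CPM in all other nuclei, and endothelial and stromal at 67.8 CPM in late erythroid nuclei, 35.5 CPM in progenitors and 225 CPM in all other nuclei. Mast cell and basophil markers were at 29.7 CPM in late erythroid nuclei, 54.5 CPM in progenitors and 118 CPM in all other nuclei, and T and NK cell markers had 6 of 8 at 0. The part of RNA from other cells in the results was not tested.

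The late erythroid nuclei were not uniform. By summed globin UMIs, 24 nuclei had fewer than 5, 61 had 5 to 19 and 17 had 20 or more, a division that uses the rule's own counts and is a description. Alas2 was at 65.1 CPM (17.7 to 167) in the first class, 211 CPM (139 to 307) in the second and 453 CPM (281 to 693) in the third. Slc25a21 was at 3627 CPM (3166 to 4135), 3637 CPM and 993 CPM (727 to 1325), lowest in the nuclei richest in globin. These intervals cover counting error on pooled UMIs and not the spread between nuclei. Late erythroid nuclei held 0 to 60 UMIs of Slc25a21 each, so a few nuclei could set the level of a class. Mki67 was at 2553, 3801 and 3648 CPM, and Sox6 at 2505, 3403 and 2957 CPM, without a steady rise or fall over the classes. By Slc4a1 UMIs, again the rule's own counts, the 17 nuclei with exactly 2 were at 475 CPM of Sptb (301 to 712) and 1300 CPM of Sox6, against 1527 CPM (1290 to 1796) and 3515 CPM in the 48 nuclei with 3 to 5. The 36 nuclei with 6 or more were at 1500 CPM of Sptb and 3688 CPM of Sox6, close to the middle class. Mpo ran the other way, at 764, 251 and 45.1 CPM (37, 24 and 4 UMIs) over the 3 Slc4a1 classes. Meis1, a stem cell factor, was at 599, 146 and 350 CPM (29, 14 and 31 UMIs). The nuclei at exactly 2 Slc4a1 UMIs thus had the lowest Sptb and Sox6 levels and the highest Mpo level of the 3 classes. These classes also count UMIs regardless of depth, and the part of depth in their levels was not tested. By depth, the 46 nuclei under 1500 UMIs were at 1901 CPM of Sptb (1555 to 2301) and 90.5 CPM of Mpo (29.4 to 211), against 1090 CPM (943 to 1254) and 338 CPM (258 to 434) in the 56 deeper ones. The rule counts UMIs regardless of depth, so a shallow nucleus was admitted only at a high Slc4a1 level (3874 CPM under 1500 UMIs and 1610 CPM in the deeper nuclei), and nothing is read from the difference between the depth classes.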

How the data were processed

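RNA of sorted LSK nuclei was analysed from 1 table. Per the submitters' processing notes, Cell Ranger ARC, Seurat and Signac were used, on mm10. Not given in the sources used here are software versions, the annotation counted and any filtering of nuclei. The authors deposited raw UMI counts of 32285 genes in 8708 nuclei (45723860 UMIs), and the values were checked to be whole numbers. No label ties a barcode suffix to a sample, so no count test between genotypes could be run, the table was treated as 1 sample and sets 1 to 4 were not called replicates. The table has 0 per-sample columns left unused.

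UMIs were summed per group of nuclei and scaled to CPM over all UMIs. Ratios are on the log2 scale of CPM plus 10, for genes with at least 50 UMIs over both groups. Calls needed 2-fold and the same direction in each set with at least 20 nuclei of both groups, which were sets 1 and 3. The medians of lists and of all genes use the same scale, and folds printed are plain ratios of CPM. Intervals are at 95%: Clopper-Pearson for shares, Poisson for CPM and binomial for ratios, and they cover counting error only. A count of 0 is given a limit of 3 counts. Nuclei were thinned with 1 fixed seed. Doublets were scored by simulated neighbours and kept. The call was run on simulated counts in which nuclei of a group differed only in depth and sampling. Those counts cannot show how the call behaves under differences between nuclei or barcode sets. Python 3.11.15, numpy 2.4.6, scipy 1.17.1, pandas 2.3.3, scikit-learn 1.9.0 and matplotlib 3.10.9 were used.

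The members and all 20 gene and 14 marker lists were chosen with earlier results of these data known, and the comparisons with shallower nuclei after the depths were seen. Named genes were the markers, the 15 highest and 15 lowest called ratios with at least 100 UMIs in each comparison, the 4 largest ratios and up to 3 highest levels of each list, all members of the globin, heme and MYC network lists, and Kit and Ly6a. Not every gene so picked is printed, and some genes counted in the lists are not reported here by name. Other genes named, such as Gata1, Klf1, Myb, Bcl11a, Bnip3l, Stat5a, Cdkn1b, Npm1 and Mcm5, were chosen after their values were seen. Promoters came from RefSeq (GRCm38.p6). Scaling, count filters, the added CPM, thresholds, doublets, depth and each barcode set were varied.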

Additional observations from a re-analysis of the deposited data

How the results depend on the processing

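The share of late erythroid nuclei was 0.195% by the globin threshold alone (17 nuclei, with no barcode set of 20) and 0.858 to 1.58% when each barcode set was left out in turn. Without each set, 596 to 770 genes were higher and 1059 to 1639 lower than in erythroid progenitors, and 827 to 901 higher and 1993 to 3114 lower than in all other nuclei. With at least 200 UMIs required, 407 genes were higher and 748 lower than in progenitors, among fewer genes measured. With 1 CPM added, 6162 genes were lower than in all other nuclei, and with the globin threshold alone 2489 were lower than in progenitors. Against the 34 progenitors under 4000 UMIs, a comparison chosen after the depths were seen, 382 genes were higher and 60 lower, among 1157 measured. Neither these progenitors (15 in set 1 and 18 in set 3) nor the 17 nuclei of the globin threshold numbered 20 in any barcode set. Calls with either group therefore had no condition on direction within sets. The G2/M share was 100% with all UMIs and 95.9 to 98.1% without each set.

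Log2 ratios to progenitors changed sign for Irf8 (1.07), which was -0.45 with stricter thresholds, -1.06 by globin alone and -0.29 with at least 3 Slc4a1 and 1500 UMIs. By globin alone, Cdc6 (1.76) was -0.28 and Plek (1.16) was -0.30. Against progenitors under 4000 UMIs, Igkc (1.5) was -0.24, Jchain (1.54) was -0.15, Ngp (1.18) was -1.10, S100a9 (1.42) was -0.42, Ldha (-1.70) was 0.89 and Usp40 (-2.13) was 0.51. Hspa1b (-1.56), with no UMI in late erythroid nuclei, was 0.00 in that comparison, which is a lost ratio and not a changed sign. The cause was not tested. Changes of sign were looked for only in genes called higher or lower in the main comparison. Of the other values of single genes, 2824 either kept a 2-fold ratio in the same direction or, where not called, moved by less than 1. Another 92 either lost a 2-fold ratio or, where not called, moved by 1 or more. No paired analysis was possible because the table's columns carry no replicate number. Depth limits genes of few UMIs in late erythroid nuclei, such as Myc, Gata1, Klf1 and Ly6a.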
